A study of Rattus norvegicus with 12 samples.

Results

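Liver transcripts for cholesterol synthesis and sterol handling were followed gene by gene in obese ZSF1 rats of both sexes, 6 females and 6 males. All were untreated adults of 16 weeks with free access to chow, and each gave 1 RNA-seq library. Obese ZSF1 animals inherit a defective leptin receptor from both parents, so females and males share that defect, and no lean animals are compared here. The genes were taken by symbol from a list of 35 symbols that stand for 33 genes: enzymes from acetyl-CoA to cholesterol, sterol sensors, intracellular carriers, esterifying enzymes, and uptake and export proteins. Rows were found for 31 of these genes among 16478 in the count files, and 30 of them passed the filter on low counts among 9943 genes tested. Mvk and Npc1 were not analysed here, and Abcg8 had too few counts to be tested. Sc4mol and Sc5dl, the symbols in the files, are now named Msmo1 and Sc5d.

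Animals kept the numbers of their labels, 7 to 10, 12 and 13 for females and 1 to 6 for males. The labels say nothing of batch, oestrous stage or time of death, and any batch that followed the animal numbers cannot be told apart from sex. Libraries held 6763879 to 24837602 counts over genes in females and 11381428 to 29232871 counts in males. The liver label was checked on the hepatocyte marker Alb, the serum albumin gene, which held 167127 to 242688 CPM (counts per 1000000 counts over genes, scaled by TMM factors) in females and 119216 to 181686 CPM in males. Male 4 and female 12 stood apart from their sexes: male 4 was the highest male for 28.6% of all genes tested and the lowest for 30.3%, and female 12 was the highest female for 24.3% and the lowest for 25.1%. Results that change without either animal are given with and without it.

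Cholesterol is built in the liver from acetyl-CoA through mevalonate, farnesyl diphosphate, squalene and lanosterol. The transcription factor SREBP2, the product of Srebf2, drives most genes of this route. When sterols are scarce, SCAP carries it from the endoplasmic reticulum to the Golgi, where proteases release its active part, and the INSIG proteins hold SCAP back when sterols are plentiful. Finished cholesterol is stored as esters, exported to lipoproteins or bile, or taken up again from plasma, and the balance of these routes sets how much of it the liver keeps.

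SREBPs act on promoters together with neighbouring factors such as NF-Y, which binds the CCAAT box, and Sp1, which binds GC-rich boxes. RefSeq promoter windows of the GRCr8 build, from 250 bases before to 50 bases after the annotated start, were held for 25 of the 31 genes. The entries of Sqle, Pmvk, Fdft1, Soat2, Scarb1 and Stard4 were missing. CCAAT on either strand occurred in 19 of 25 windows (76%), against 38.1% of windows of all tested genes that could be matched and 37.5% of all 33469 windows. GGGCGG on either strand occurred in 18 of 25 (72%), against 61.9% of windows of tested genes and 33.1% of all windows. These are counts of letters and not of bound sites. The stretches below are shown because they hold the paired CCAAT boxes of several enzymes and the letters ATCACCCCA in Srebf2. They also set side by side Aacs, which differed most between the sexes, Hmgcs1, which did not pass the test, and Insig1 and Insig2, which went opposite ways. Capitals mark CCAAT, its reverse complement ATTGG, or ATCACCCCA, and each stretch runs 5′ to 3′ on the gene's strand within the 250 bases before its start.
Aacs: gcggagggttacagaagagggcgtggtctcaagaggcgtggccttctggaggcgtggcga
Hmgcs1: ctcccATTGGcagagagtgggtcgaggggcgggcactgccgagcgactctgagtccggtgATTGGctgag
Idi1: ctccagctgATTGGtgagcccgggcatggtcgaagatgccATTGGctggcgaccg
Fdps: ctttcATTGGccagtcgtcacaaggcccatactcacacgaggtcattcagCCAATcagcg
Sc4mol: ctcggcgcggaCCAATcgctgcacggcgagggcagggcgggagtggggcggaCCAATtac
Nsdhl: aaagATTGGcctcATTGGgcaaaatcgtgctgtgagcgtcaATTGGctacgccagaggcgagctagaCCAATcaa
Insig1: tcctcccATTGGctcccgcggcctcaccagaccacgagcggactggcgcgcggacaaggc
Insig2: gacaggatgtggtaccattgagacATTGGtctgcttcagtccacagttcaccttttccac
Srebf2: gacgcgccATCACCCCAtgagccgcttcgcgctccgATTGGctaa

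ATCACCCCA, which begins the classical sterol regulatory element, was searched on both strands and found in Srebf2 only among the 25 windows and in 0.119% of windows of tested genes. The overlapping core TCACNCCAC, with N for any base, was found in 0 of the 25, against 1.06% of windows of tested genes. The Srebf2 site misses this core only at its last base. Variant sites that depart from these letters were not searched, so the counts do not show that the genes lack the element. Hmgcs1, Idi1 and Fdps each show 2 CCAAT boxes, and Aacs held none in its window. CCAAT occurred in 14 of the 20 windows of genes that were higher in females and in all 5 windows of the other genes.

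Most genes of the route stood higher in females. Of the 30 genes tested, 25 passed an adjusted p of 0.05 (edgeR quasi-likelihood test, Benjamini-Hochberg over all 9943 genes), where 43.2% of all tested genes did. Females were higher for 22 of them and males for 3, against 20.5% and 22.7% of all tested genes. Of these, 17 were at least 1.5-fold higher in females and 10 at least 2-fold, against 8.73% and 3.22% of all tested genes. Values of 14 genes did not overlap, with every female above every male, and those of 2 genes lay the other way round. Over all tested genes those shares were 10.1% and 12.8%. The genes were chosen with earlier results of these data known, so these comparisons with all tested genes are descriptive. The median log2 fold change, females over males, was 0.69 over the 30 genes and -0.013 over all genes. In whole liver, a difference in the number of cells of a type and a difference in RNA per cell cannot be told apart.

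**Figure D1:**
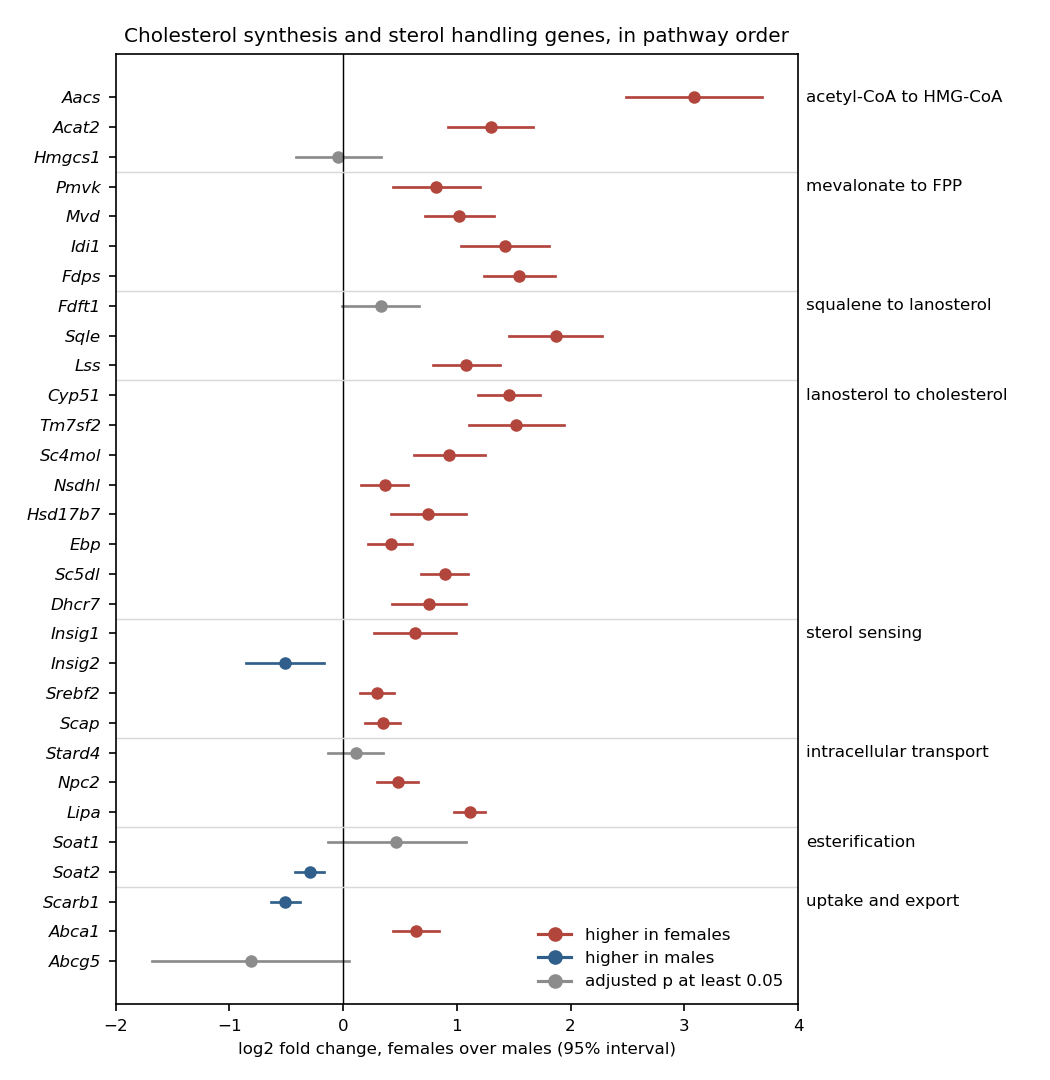
Log2 fold change of each tested gene, females over males, with its 95% interval from the edgeR fit (x axis), in pathway order from top to bottom. Red points passed the test with higher values in females (22 genes), blue ones with higher values in males (3 genes), and grey ones did not pass. The synthesis enzymes lie almost wholly right of 0, from -0.04 (Hmgcs1) to 3.09 (Aacs), while the sterol handling genes at the bottom lie on both sides.

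Enzymes of synthesis made up 16 of the 22 genes higher in females. Their 2 other members, Hmgcs1 and Fdft1, did not pass the test (adjusted p = 0.872 and 0.105), so 0 of the 18 enzymes were higher in males. The median log2 fold change was 0.98 over the enzymes, and 0.32 over the 12 tested genes of sensing, transport, esterification and export. Of these 12, 6 passed the test with higher values in females and 3 in males, beside 20.5% and 22.7% of all tested genes. The number higher in males was thus near the background, and 8 of the 12 had a positive log2 fold change. Summed over the 18 enzymes, females held 1973 to 2615 CPM (median 2258) and males 1175 to 1755 (median 1326), so the sums did not overlap.

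Before mevalonate the gap between females and males was widest at the side entrance of the route. Aacs, which turns the ketone body acetoacetate into acetoacetyl-CoA in the cytosol, held 15.9 to 43.4 CPM in females (median 29.3) and 2.02 to 5.49 in males (median 3.32). The lowest female was thus well above the highest male, and the gene was 8.51-fold higher in females (95% interval 5.64 to 12.9, adjusted p = 2.64e-06). Acat2, the cytosolic thiolase that joins acetyl-CoA units and not the cholesterol-esterifying enzyme of similar name, held 25.8 to 52.1 CPM in females (median 36.7) and 12.7 to 19.4 in males (median 14.2), 2.46-fold higher in females without overlap (adjusted p = 6.09e-05). Hmgcs1, the cytosolic HMG-CoA synthase, broke this pattern: it held 236 to 337 CPM in females (median 307) and 206 to 457 in males (median 297). Its log2 fold change was -0.04 (95% interval -0.41 to 0.33), with the sexes lying over each other. Its spread was wider in males, of which male 3 was the highest, and its sign turned without female 7 (0.01), female 13 (0.02) or male 3 (0.12).

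Reads of Acat2, Idi1, Fdps, Cyp51 and Nsdhl may be shared with pseudogenes that RefSeq names after them, so their levels are uncertain to that extent. The next stage, from mevalonate to farnesyl diphosphate, was higher in females at each of the 4 steps measured. Pmvk, the kinase of phosphomevalonate, held 33.1 to 63.5 CPM in females (median 54.2) and 21.8 to 37.4 in males (median 27.9). Of the 6 females 5 lay above every male, and the gene was 1.76-fold higher in females (adjusted p = 0.00238). Mvd, the decarboxylase that makes isopentenyl diphosphate, was 2.03-fold higher in females (17.5 to 32.3 CPM in females and 8.47 to 13.3 in males). Idi1, the isomerase of that product, was 2.68-fold higher in females (10.1 to 18.8 CPM in females and 3.95 to 7.5 in males). Neither gene showed overlap between the sexes (adjusted p = 5.98e-05 for Mvd and 3.01e-05 for Idi1). Fdps, which condenses the units to farnesyl diphosphate, the branch point to sterols, prenylated proteins and ubiquinone, held 212 to 377 CPM in females (median 276) and 80.0 to 125 in males (median 89.4). It was 2.93-fold higher in females without overlap (95% interval 2.36 to 3.63, adjusted p = 1.77e-06).

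From farnesyl diphosphate to lanosterol the 3 enzymes differed in how far they separated the sexes. Fdft1, squalene synthase, which commits the route to sterols, held 102 to 156 CPM in females (median 129) and 74.8 to 147 in males (median 98.7). The ranges overlapped and the gene did not pass the test (log2 0.33, 95% interval -0.01 to 0.67), but without male 4, the highest male at 147 CPM, it passed (log2 0.48, adjusted p = 0.00934). Sqle, squalene epoxidase, a rate-limiting step of the sterol branch, held 18.3 to 31.5 CPM in females (median 26.8) and 4.43 to 9.72 in males (median 7.34). It showed the largest fold among the enzymes after Aacs, 3.66-fold higher in females without overlap (95% interval 2.75 to 4.86, adjusted p = 5.43e-06). Lss, the cyclase that closes the sterol rings, held 24.1 to 34.9 CPM in females and 10.2 to 17.6 in males, again without overlap, and was 2.12-fold higher in females (adjusted p = 2.77e-05).

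All 8 measured enzymes that turn lanosterol into cholesterol were higher in females, and 5 of them without overlap. Cyp51, the lanosterol demethylase, held 166 to 243 CPM in females (median 191) and 55.0 to 87.3 in males (median 70.7). It was 2.74-fold higher in females (95% interval 2.27 to 3.31, adjusted p = 8.13e-07). Tm7sf2, a sterol reductase that acts next, was 2.88-fold higher in females (58.8 to 115 CPM in females and 17.6 to 33.5 in males, adjusted p = 4.7e-05).

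Later steps differed less. Sc4mol (Msmo1), the methyl sterol oxidase, was 1.91-fold higher in females, with 57.1 to 86.2 CPM in females and 30.4 to 49.1 in males (adjusted p = 0.000229). Sc5dl (Sc5d), the sterol desaturase, was 1.86-fold higher, with 278 to 385 CPM in females and 147 to 204 in males (adjusted p = 4.84e-06). Both were free of overlap. Hsd17b7, the reductase that completes removal of the methyl groups, held 6.12 to 9.70 CPM in females and 3.41 to 5.72 in males, also without overlap, and was 1.68-fold higher (adjusted p = 0.00129).

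The 3 remaining enzymes of this stage overlapped between the sexes, with 5 of 6 females above every male in each case. Nsdhl, a dehydrogenase of the same demethylation steps, held 385 to 472 CPM in females and 265 to 402 in males, 1.29-fold higher in females (adjusted p = 0.00686). Ebp, the sterol isomerase, held 105 to 159 CPM in females and 88.5 to 116 in males, 1.33-fold higher in females (adjusted p = 0.0021). Dhcr7, the last reductase before cholesterol, held 85.7 to 155 CPM in females and 57.8 to 86.0 in males, 1.69-fold higher in females (adjusted p = 0.00127). In all 3 the female inside the male range was female 12, which was the lowest female.

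**Figure D2:**
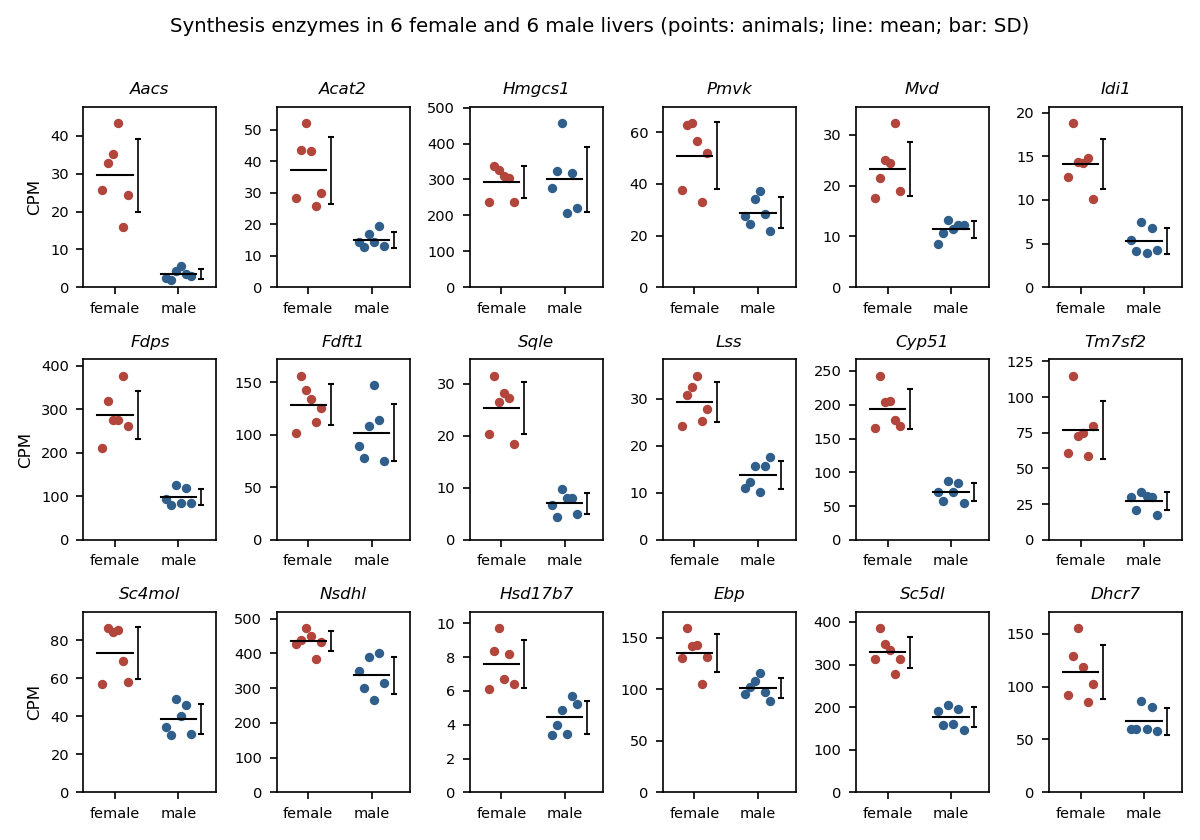
TMM-scaled CPM (y axis, starting at 0) of the 18 synthesis enzymes in each female (red) and male (blue), in pathway order. Points are animals, the line is the mean and the bar the SD (n = 6 each). In 12 of the panels every female lies above every male, and in the Hmgcs1 panel the sexes lie over each other.

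Animals of 1 sex also differed in their enzyme levels. Each enzyme was divided by its median in that sex, and the median over the 18 enzymes was 116% in female 8 and 109% in female 9, against 82.3% in female 7, 87.5% in female 12 and 90.4% in female 13. Female 8 was the highest female for 9 enzymes and the lowest for 0, while female 7 was the highest for 0 and the lowest for 7. Over all genes tested, female 8 was the highest for 12.3% and the lowest for 12.4%, and female 7 for 16.1% and 17.2%. Among males the median was 120% in male 3 and 114% in male 5, against 88.4% in male 6 and 88.7% in male 2. Male 3 was the highest male for 10 enzymes, where it was the highest for 12.9% of all genes tested, and male 6 was the lowest for 7, where it was the lowest for 16.4%.

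Female 12 did not move evenly. It was the lowest female for 8 of the 18 enzymes, among them Aacs at 15.9 CPM, Acat2 at 25.8 CPM and Pmvk at 33.1 CPM, and the highest female for Fdps at 377 CPM and Mvd at 32.3 CPM. It lay above every male for 12 enzymes, where each of the other 5 females did so for 16 or 17. Without female 12, 20 of the 30 genes tested showed every female above every male, against 14 with it, where the share of all tested genes was 11.7% without female 12 and 10.1% with it. Male 6 lay below every female for all 18 enzymes and male 3 for 12.

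**Figure D3:**
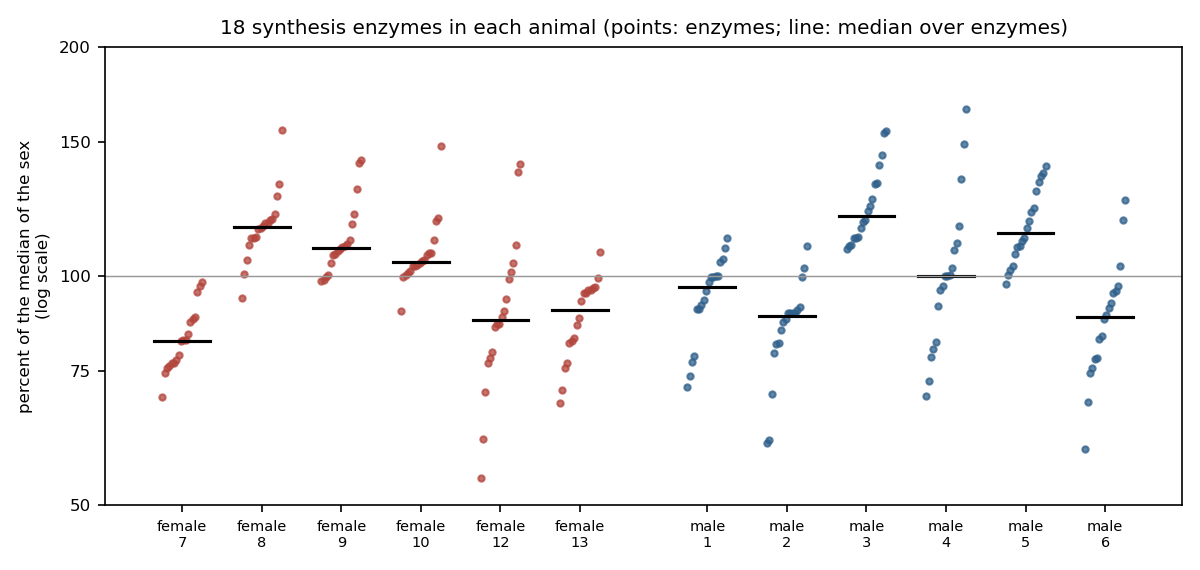
Each of the 18 synthesis enzymes in each animal as a percent of the enzyme's median in that sex (y axis, log scale), females in red on the left and males in blue on the right. Points are enzymes and the black line is their median, which runs from 82.3% (female 7) to 116% (female 8) in females and from 88.4% (male 6) to 120% (male 3) in males.

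Among the sensing genes, Srebf2 and Scap showed small differences, and the INSIG pair went opposite ways. Srebf2, the gene of the pathway's transcription factor, held 45.8 to 57.0 CPM in females (median 54.2) and 37.5 to 48.7 in males (median 43.6). It was 1.23-fold higher in females (95% interval 1.11 to 1.37, adjusted p = 0.00361), and female 7 alone lay inside the male range. Scap, its escort protein's gene, was 1.27-fold higher in females, with 49.1 to 62.0 CPM in females and 37.8 to 49.9 in males (adjusted p = 0.00175), and again female 7 alone overlapped the males. Both folds were below those of every enzyme that passed the test.

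Insig1, itself a target of SREBP2, held 225 to 486 CPM in females (median 371) and 162 to 285 in males (median 238). Of 6 females 5 lay above every male, with female 12 at 225 CPM as the exception, and the gene was 1.55-fold higher in females (adjusted p = 0.00815). Insig2, which has the same anchoring role and in rodent liver a transcript known to be repressed by insulin, held 138 to 203 CPM in females (median 150) and 161 to 300 in males (median 238). It was 1.43-fold higher in males (log2 fold change -0.51, adjusted p = 0.0184), and 4 females lay below every male. Within a library, log2 of the Insig1 to Insig2 ratio averaged 1.16 ± 0.54 in females and 0.06 ± 0.49 in males (SD, n = 6 each). The difference of 1.09 passed a 2-sided exact permutation test over all assignments of sex (p = 0.0108, and 0.0325 adjusted over 3 such ratios). Leaving out female 8, 10 or 13, or male 1, 2, 5 or 6, took the adjusted p to 0.0584, at differences of 0.98 to 1.06.

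Among genes that move cholesterol inside the cell, Lipa was the most sharply separated. Lipa, the lysosomal acid lipase that frees cholesterol from lipoprotein esters, held 437 to 501 CPM in females (median 480) and 204 to 240 in males (median 218). It was 2.17-fold higher in females without overlap (95% interval 1.97 to 2.38, adjusted p = 6.68e-09), the smallest adjusted p among the 30 genes. Npc2, which carries that cholesterol inside the lysosome, held 107 to 125 CPM in females (median 117) and 75.6 to 109 in males (median 78.7), 1.39-fold higher in females (adjusted p = 0.000463). The only male inside the female range was male 4 at 109 CPM, and the other males lay between 75.6 and 81.8. Stard4, a cytosolic sterol carrier and a known SREBP2 target, did not pass the test, with 51.0 to 77.3 CPM in females and 49.1 to 69.6 in males (log2 0.11, 95% interval -0.13 to 0.35, adjusted p = 0.444).

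Of the esterifying enzymes 1 was higher in males and the other did not pass the test. Soat2, the cholesterol acyltransferase of hepatocytes, held 48.6 to 54.9 CPM in females (median 51.0) and 56.7 to 69.6 in males (median 62.0). Every male lay above every female, and the gene was 1.23-fold higher in males (log2 fold change -0.29, adjusted p = 0.0012). Soat1, the form of most other cell types, stood near the limit of detection, with 4 to 30 counts in a female library and 8 to 21 in a male one. It held 0.494 to 1.25 CPM in females and 0.437 to 1.15 in males and did not pass the test (log2 0.47, 95% interval -0.13 to 1.08). Male 4 was the highest male at 1.15 CPM, and without it the log2 fold change was 0.75 (adjusted p = 0.0253). The log2 ratio of Soat2 to Soat1 averaged 5.88 ± 0.44 in females and 6.57 ± 0.51 in males (SD, n = 6 each), a difference of -0.69 (2-sided exact permutation p = 0.026, adjusted over 3 ratios 0.039). Leaving out female 8, 10, 12 or 13, or male 1, 2, 3, 5 or 6, took the adjusted p to between 0.0682 and 0.101, at differences of -0.71 to -0.58.

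Uptake and export genes divided. Scarb1, the gene of the HDL receptor SR-B1, which takes up cholesterol esters from plasma, held 64.5 to 79.0 CPM in females (median 68.4) and 94.7 to 106 in males (median 98.6). Every male lay above every female, and the gene was 1.42-fold higher in males (log2 fold change -0.51, adjusted p = 9e-06). Abca1, the transporter that loads cholesterol onto nascent HDL, went the other way, with 58.9 to 78.4 CPM in females (median 72.0) and 38.4 to 55.6 in males (median 46.2). It was 1.56-fold higher in females without overlap (95% interval 1.36 to 1.79, adjusted p = 9.08e-05).

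The genes of the biliary sterol exporter Abcg5 and Abcg8, which lie head to head in the rat genome and whose proteins work as a pair, were scarcely counted. Abcg5 held 6 to 42 counts in a female library and 14 to 72 in a male one. Its CPM were 0.508 to 3.16 in females (median 0.925) and 1.01 to 3.84 in males (median 1.97). It did not pass the test (log2 fold change -0.81, 95% interval -1.68 to 0.05, adjusted p = 0.12). Female 12, at 3.16 CPM, lay far above the other 5 females (0.508 to 1.09), and without it the log2 fold change was -1.34 (adjusted p = 0.00419). Abcg8 held 0 to 4 counts in a female library and 0 to 14 in a male one, was 0 in 2 females and 1 male, and was not tested.

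**Figure D4:**
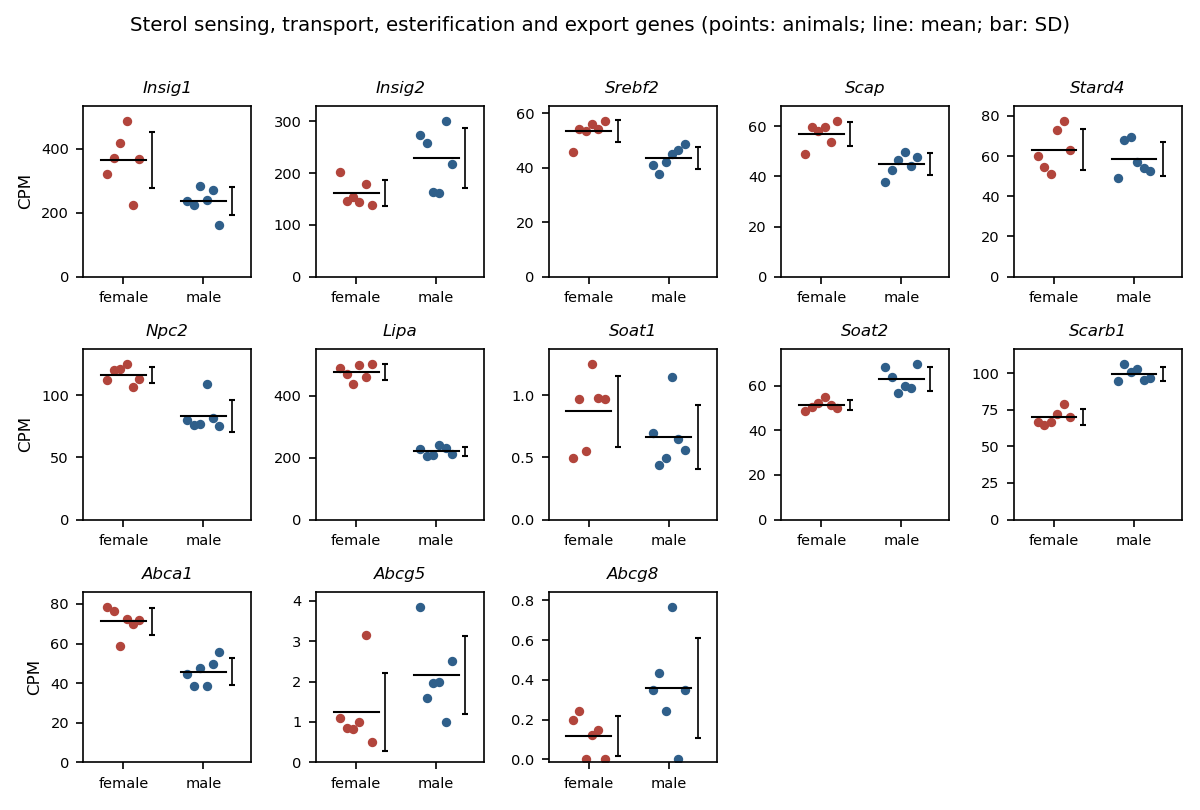
TMM-scaled CPM (y axis) of the 13 genes of sterol sensing, transport, esterification, uptake and export in each female (red) and male (blue), with the mean (line) and SD (bar, n = 6 each). Lipa and Abca1 are higher in every female than in any male, Scarb1 and Soat2 are higher in every male than in any female, and Insig1 and Insig2 lean opposite ways.

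Further genes of the pathway were taken from 7 lists drawn up by function. Females were higher for 20 of the 59 tested and males for 12, beside 20.5% and 22.7% of all tested genes, so the number higher in males was near the background. Over the alternatives, 15 to 22 were higher in females and 10 to 13 in males. The lower end for females came closer to the background. Among 11 genes of SREBP processing and its partner factors, 6 were higher in females and 0 in males, and leaving out female 8 or male 1 brought the number to 3. They include Mbtps2, a protease that releases SREBP (1.54-fold, adjusted p = 0.00672), and Sp1 (1.24-fold, adjusted p = 0.00252). The NF-Y subunit gene Nfya was among them but lost the call under at least 1 alternative, as did Ggps1, Cyp8b1 and Cyp39a1 in later lists. The NF-Y subunit genes Nfyb and Nfyc did not pass the test (log2 fold change -0.05 and -0.06, adjusted p = 0.664 and 0.469). Of 10 genes of the isoprenoid branches, 2 were higher in females and 3 in males, also near the background: Pggt1b, a subunit of a protein prenyltransferase, was 1.57-fold higher in females, and Pdss2, of ubiquinone synthesis, 1.27-fold and Dhdds, of dolichol synthesis, 1.24-fold higher in males.

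Beside each list here stand the 20.5% of all tested genes higher in females and the 22.7% higher in males. Of 9 tested sterol transfer genes, 1 was higher in females and 2 in males, not above those shares. Stard5, a cytosolic carrier related to Stard4, held 62.7 to 76.5 CPM in females and 32.0 to 49.7 in males and was 1.57-fold higher in females (adjusted p = 5.46e-05). Scp2, a sterol carrier of peroxisomes, was 1.25-fold higher in males, with 1663 to 1938 CPM in females and 2185 to 2431 in males, and Osbpl9, of the oxysterol-binding protein family, was 1.17-fold higher in males. Of 9 genes of oxysterol sensing and cholesterol breakdown, 1 was higher in females and 3 in males, among them Nr1h3, the gene of the oxysterol receptor LXR-alpha (1.14-fold higher in males, adjusted p = 0.00632), and Cyp7b1 (2.49-fold higher in males, adjusted p = 0.00045). Of 5 plasma and uptake genes 1 was higher in each sex, near the background. Lrpap1, a chaperone of lipoprotein receptors, was 1.26-fold higher in females and Lcat, which esterifies cholesterol in HDL, 1.24-fold higher in males.

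Genes that feed or compete for the first steps went both ways. Of 7 genes of acetyl-CoA supply and ketone bodies, 2 were higher in females and 3 in males, beside 20.5% and 22.7% of all tested genes. Acly and Acss2, the cytosolic makers of acetyl-CoA from citrate and acetate, were 1.90-fold and 2.32-fold higher in females (adjusted p = 0.0044 and 0.000488). Of 8 tested fatty acid synthesis genes driven by the related factor SREBP1, 7 were higher in females and 0 in males, with Gpam 6.33-fold, Acacb 3.83-fold, Elovl6 3.62-fold and Scd 3.56-fold higher. Female 12 held 2748 CPM summed over that list, the lowest of the females.

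Markers of other cell types were counted in the same fit, beside 20.5% of all tested genes higher in females and 22.7% in males. Of 3 tested sinusoidal endothelial markers all 3 were higher in females, or 2 without female 8 or male 2, and their summed level was 70.4 to 87.6 CPM in females and 24.9 to 71.0 in males. Females were higher for 2 of 10 Kupffer cell and macrophage markers and males for 0, a share near the background, with sums of 219 to 323 CPM in females and 128 to 445 in males. Male 4 held the 445, the other males at most 223, and without male 4 the number higher in females was 9. The shares of all tested genes given here are from the fit of all 12 animals, and those without male 4 are not reported here. Lipa, Npc2, Soat1 and Abca1 are known from macrophages as well as hepatocytes, and without male 4 their log2 fold changes were 1.15, 0.58, 0.75 and 0.60, against 1.12, 0.48, 0.47 and 0.64 with it. Among 8 stellate cell markers 1 was higher in females, with 2 in males, of 3 bile duct markers 0 either way (edgeR, lowest adjusted p 0.744), and of 4 tested blood markers 0 in females and 2 in males. The 6 hepatocyte markers split into 2 with higher values in females, 3 in males and 1 that did not pass, and males were higher for 2 or 3 of them over all alternatives. Of 3 adipocyte markers Lep stood at 0 in every library and Adipoq at up to 0.0752 CPM in females and 0.0874 CPM in males. Cfd, the only adipocyte marker tested, held 3.88 to 7.82 CPM in females and 2.21 to 4.72 CPM in males and was 1.94-fold higher in females (adjusted p = 0.00125). Without female 8 or 12, or male 1, 3 or 6, the number of macrophage markers higher in females was 1. Over all alternatives the stellate markers gave 1 to 3 higher in females and 1 or 2 in males, the blood markers 0 to 3 in males, and the hepatocyte markers 1 or 2 in females. The part of other cell types in these results was not tested.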

How the data were processed

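RNA from whole liver was made into Illumina TruSeq libraries, per the labels' protocols. The authors deposited 1 table of raw read counts per gene for each of the 12 animals, and the submitters' processing notes name Bowtie2 2.0.2, DESeq and the rn4 build. The counter, annotation and strand setting are not given in the sources used here. The 5 rows that name no gene held 27.1% to 31.7% of the counts and were left out.

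Members and lists were chosen with earlier results of these data known. All members are named. From each other list the rule took up to 4 genes past the threshold with the largest absolute log2 fold change. Some genes that this rule took are not reported here. Genes were filtered with filterByExpr (minimum count 10, minimum total 15) and tested with edgeR 4.0.16 (TMM factors, robust quasi-likelihood fit, females over males, R 4.3.3). Benjamini-Hochberg adjustment ran over all 9943 genes tested, at a threshold of 0.05, and intervals are 95%. DESeq2 1.42.0, limma 3.58.1, other scalings and filters, and leaving out animals were alternatives. The lowest chi-square per degree of freedom between libraries of 1 sex was 6.34, so no pair agreed within sampling noise. A count of 0 allows up to 3 counts, or 0.103 to 0.444 CPM over the libraries, for counting error only. On simulated counts with known changes the test recovered 69.7% of genes changed 1.5-fold, 86.6% at 2-fold and 97% at 4-fold among 9898 genes, with 11 false calls among 179. Only 66, 67 and 66 genes were changed at these sizes, while 43.2% of genes passed in the real data. The recovery rates therefore do not carry over directly. Ratios within a library used counts plus 0.5 and an exact permutation test. Promoter windows came from RefSeq GRCr8, and no coordinates are given because the files use another build.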

Additional observations from a re-analysis of the deposited data

Results flagged for a closer look

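In 60 groups of 6 animals, 1 for each tested gene and sex, 5 held an animal far from the others of its sex by Dixon's criterion, where chance gives about 1 in 20. Tm7sf2 stood at 115 CPM in female 8, against 58.8 to 79.6 in the other females. Srebf2 stood at 45.8 CPM in female 7, below the 53.3 to 57.0 of the other females. Abcg5 stood at 3.16 CPM in female 12, against 0.508 to 1.09 in the other females. Npc2 stood at 109 CPM in male 4, against 75.6 to 81.8 in the other males. Soat1 stood at 1.15 CPM in male 4, against 0.437 to 0.699 in the other males, from 21 counts.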

How the results depend on the processing

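Over 20 alternatives, 22 to 24 members were higher in females (22 as reported) and 3 or 4 in males (3 as reported), and 589 of 599 values for single members kept their direction and their side of the threshold. Calls were gained, not lost, in 7 cases, for Fdft1, Soat1 and Abcg5. The log2 fold change of Hmgcs1 turned to 0.02 without female 13, 0.01 without female 7 and 0.12 without male 3, and leaving out each animal in turn gave -0.12 to 0.12; the cause was not tested. For Abcg5 the call appeared without female 12, also with male 4 left out too (-1.36), and with limma-voom (adjusted p = 0.0396). Leaving out 1 animal gave 0.98 to 1.26 for the Insig1 to Insig2 log2 ratio difference, with 7 of 12 fits past the threshold no longer, and -0.87 to -0.58 for Soat2 to Soat1, with 9 of 12. The smaller groups allow fewer assignments in these exact tests. The Abcg5 to Abcg8 difference of 0.37 (exact permutation p = 0.593) ranged from 0.07 to 0.77 without 1 animal, and became -0.03 with counts plus 2 and -0.11 without male 4 and female 12. The alternatives for the other pathway and marker lists were chosen after seeing the data. Of the small lists, the isoprenoid genes gave 1 or 2 higher in females, the oxysterol genes 0 or 1, the plasma and uptake genes 1 to 3 and the sterol transfer genes 1 or 2. The median log2 fold change of all genes stayed between -0.016 and 0.015. Genes with few counts (Soat1, Abcg5, Abcg8) are limited by depth. No paired analysis was made because the sample labels used here pair no female with a male.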
